A study of Mus musculus with 8 samples.

Results

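The immediate early genes described here were 10 genes of the count table, Fos, Fosb, Jun, Junb, Jund, Egr1, Atf3, Ier2, Btg2 and Zfp36, chosen by name among its 16791 genes. The cells came from hearts of 8 adult Pdgfb-iCreERT2-R26R-Brainbow2.1 (Confetti) mice, in which tamoxifen (150 mg/kg) makes Cre recombinase expressed from Pdgfb switch on a fluorescent reporter in endothelial cells, so that unlabelled endothelial cells were not sampled. All mice received tamoxifen 21 days before collection. The left anterior descending coronary artery was ligated in 4 of them 14 days after tamoxifen and their hearts were taken 7 days after the infarction (MI), whereas 4 healthy mice had no surgery, so that surgery and infarction cannot be told apart. CD31+, Confetti+ and podoplanin- cells were sorted after enzymatic digestion for 20 min at 37 °C, and each heart gave 1 10X Chromium library, named here by its group and label number (Healthy 227, 228, 239 and 240 and MI 244, 250, 255 and 256). The age and sex of each mouse were not used here.

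Immediate early genes are transcribed within minutes of a stimulus without new protein synthesis, mostly through MAP kinases acting on serum response factor, its ternary complex partners and CREB. Fos, Fosb, Jun, Junb and Jund encode subunits of the AP-1 transcription factor, Fos proteins pairing with Jun proteins. Egr1 encodes a zinc finger transcription factor induced by growth factors and flow, and Atf3 a stress-induced factor of the ATF/CREB family. Ier2 encodes a nuclear protein of the early response, Btg2 an antiproliferative cofactor of mRNA deadenylation, and Zfp36 (tristetraprolin) a protein that binds AU-rich mRNAs and speeds their decay. In endothelial cells these genes respond to flow, growth factors and injury. Tissue digestion is also known to induce them, together with heat shock genes, and both groups were digested. There was no undigested sample among the libraries, so that the level before digestion was not measured.

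The members lie on several chromosomes (GRCm38, GENCODE vM21). Fos spans chr12:85473890-85477273 on the plus strand, Jun chr4:95049034-95052222 on the minus strand, and Btg2 chr1:134075170-134079120 on the minus strand. Atf3 has the longest gene of the 9 members placed here, 47744 bases at chr1:191170296-191218039 on the minus strand. RefSeq promoter windows (GRCm38.p6, 250 bases before to 50 after the start) were matched by symbol for 8 members. RefSeq's start differs from the GENCODE gene for some of them, the Jund window lying wholly upstream of the gene and those of Atf3 and Zfp36 inside it. These windows were searched on both strands for the serum response element core (CArG box), the cAMP response element (CRE, TGACGTCA), the AP-1 site (TGANTCA) and the EGR site (GCGNGGGCG); none of these contains another. A CArG box was present in 1 of the 8 windows (Zfp36) and in 1.63% of 32851 windows, a CRE in 1 (Btg2) and in 1.79%, an EGR site in 3 (Fosb, Btg2 and Zfp36) and in 5.55%, and an AP-1 site in 0 of the 8 and in 7.81%. The 250 bases before the start are shown for Fos, a member of the pair with the highest correlation within cells, and for Btg2, the member with the lowest fold change in MI, with matches in capitals (CRE at 166 and EGR site at 131 bases before the start of Btg2, none in Fos). The Zfp36 CArG box, 58 bases before the start, is shown in capitals with 10 bases on either side. A match describes the letters and not a bound site. The lack of a match, as in Fos, leaves sites outside the window or with other letters unseen.

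Fos, chr12:85473640-85473889, plus strand: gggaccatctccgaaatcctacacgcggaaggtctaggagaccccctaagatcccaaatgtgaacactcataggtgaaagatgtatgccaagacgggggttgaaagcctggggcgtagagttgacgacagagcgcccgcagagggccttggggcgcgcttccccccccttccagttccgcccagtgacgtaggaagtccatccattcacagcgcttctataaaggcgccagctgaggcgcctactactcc

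Btg2, chr1:134079156-134079405, minus strand: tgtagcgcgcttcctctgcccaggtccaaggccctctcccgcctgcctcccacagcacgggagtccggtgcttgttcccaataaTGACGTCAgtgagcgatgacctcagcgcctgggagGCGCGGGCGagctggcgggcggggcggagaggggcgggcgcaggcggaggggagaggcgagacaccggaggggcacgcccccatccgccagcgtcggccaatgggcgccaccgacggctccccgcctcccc

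Zfp36, chr7:28379267-28379296, minus strand: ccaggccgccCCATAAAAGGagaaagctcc

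Before the results, the libraries were compared. Healthy 228 shared 2041 cell barcodes with Healthy 239 and 2030 of these were copies, meaning that 90% or more of the smaller cell's UMIs had a match, gene by gene, in the larger. Healthy 227 shared 316 barcodes with Healthy 228, of which 301 were copies. The cause of the copies is unknown, and whether Healthy 227, 228 and 239 are otherwise fully separate libraries was not tested. The smaller cell of each copied pair was left out, as were cells carrying haematopoietic, mural or other non-endothelial markers, which left 1591 to 3559 endothelial cells in healthy and 3369 to 4754 in MI mice. Their UMIs totalled 4848491 to 7591618 per healthy mouse and 14248033 to 23516001 per MI mouse, with medians per cell of 1870 to 2754 and 3397 to 4677, so that UMIs per cell moved with the group. Deeper sequencing and more RNA in a cell cannot be told apart in these counts. Endothelial markers fitted the label, with a UMI of Cdh5 in 60.1 to 68.2% and of Pecam1 in 51.7 to 61.1% of cells thinned to 1000 UMIs. Haematopoietic markers left in these cells summed to 36.2 to 167 UMIs per 1000000 in healthy and 297 to 530 in MI mice, with 9 of 14 genes called higher in MI and 2 at 0 in at least 1 mouse. Cardiomyocyte markers summed to 41.8 to 85.2 and 33.6 to 69.4.

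All 10 members were readily measured in the endothelial cells of every mouse. As counts per 1000000 UMIs (CPM), which need no correction for gene length in a 3' assay, the summed members made up 5247 in Healthy 227, 8985 in Healthy 228, 8507 in Healthy 239 and 9931 in Healthy 240, against 5898 in MI 244, 8123 in MI 250, 6593 in MI 255 and 6752 in MI 256. Healthy 227 was the lowest healthy mouse for all 10 members and the lowest of all 8 mice for 7 of them. Among all genes tested it was the lowest healthy mouse for 22.1%. Healthy 240 was the highest healthy mouse for 8 members, and MI 250 the highest MI mouse for 9.

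Against healthy mice, Btg2 and Jund were lower and Atf3 was higher in MI, and the other 7 members did not pass the test. The test was edgeR's quasi-likelihood test on UMIs summed per mouse, with Benjamini-Hochberg adjustment over 12274 genes at 0.05. It called 18.7% of all genes higher and 18.9% lower, so that 1 member higher and 2 lower of 10 is close to that background. The members had a median log2 fold change of -0.33, beside -0.02 for all genes tested.

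Btg2 was measured at 588.5, 1043, 1069 and 1259 CPM in Healthy 227, 228, 239 and 240, and at 539, 748, 579 and 629 CPM in MI 244, 250, 255 and 256. Healthy 227 lay among the MI mice and the other 3 healthy mice lay above all of them. The log2 fold change was -0.75 ± 0.21 (SE, n = 4 and 4, edgeR adjusted p = 0.018). Jund, the AP-1 subunit least dependent on stimulation, had 791, 1323, 1238 and 1749 CPM in the healthy mice and 725, 949, 827 and 805 CPM in the MI mice. Here too Healthy 227 overlapped the MI mice and the other healthy mice did not. Its log2 fold change was -0.71 ± 0.20 (edgeR adjusted p = 0.020). Both calls were lost without MI 244 (log2 fold change -0.689 for Btg2 and -0.655 for Jund, edgeR adjusted p = 0.054 and 0.059). Without MI 255 they were lost too (-0.711 and -0.705, edgeR adjusted p = 0.0503 and 0.0501). In capillary-like cells alone, a class set by marker genes, they were also lost, at -0.48 for Btg2 and -0.52 for Jund (edgeR adjusted p = 0.088 and 0.084).

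Atf3 was the member with the lowest level, with 35.0, 55.7, 74.0 and 85.6 CPM in Healthy 227, 228, 239 and 240 and 102, 152, 105 and 83.5 CPM in MI 244, 250, 255 and 256. The groups overlapped by Healthy 240 and MI 256. The log2 fold change was 0.73 ± 0.26 (edgeR adjusted p = 0.047), a fold of 1.66. This call was the least steady: it was lost in 6 of 8 fits without 1 mouse, namely Healthy 227, 228 or 239 or MI 244, 250 or 255 (edgeR adjusted p from 0.055 to 0.127), with copied cells kept (0.055) and with cells of at most 10% mitochondrial UMIs (0.051). The log2 fold change lay between 0.53 and 0.82 in those 6 fits. It was 0.674 with copied cells kept and 0.705 with at most 10% mitochondrial UMIs. Without both Healthy 227 and Healthy 228 it fell to 0.39 (edgeR adjusted p = 0.21). In haematopoietic-marked cells, left out here, Atf3 stood at 261 to 347 CPM in 3 healthy mice and 416 to 489 CPM in the MI mice. The part of residual haematopoietic RNA in the endothelial difference was not tested.

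Fos had 841, 1738, 1476 and 1781 CPM in the healthy mice and 1165, 1710, 1452 and 1400 CPM in the MI mice. The MI mice lay within the healthy range, and the log2 fold change was -0.12 ± 0.22 (edgeR adjusted p = 0.70). Jun, its usual partner, had 1150, 1889, 1535 and 1564 CPM in healthy and 1203, 1511, 1229 and 1190 CPM in MI mice, with a log2 fold change of -0.35 ± 0.15 (edgeR adjusted p = 0.091). Egr1 had 267, 476, 362 and 507 CPM in healthy and 271, 437, 270 and 357 CPM in MI mice, again overlapping, at -0.36 ± 0.22 (edgeR adjusted p = 0.23). Junb (-0.14), Fosb (-0.09), Ier2 (-0.31) and Zfp36 (-0.49) had log2 fold changes with edgeR adjusted p from 0.11 to 0.75. Without Healthy 227, the library in which every member was lowest among healthy mice, Jun, Ier2 and Zfp36 were also called lower (log2 fold change -0.47, -0.49 and -0.68, edgeR adjusted p from 0.012 to 0.029). None of the 10 members had groups that did not overlap, beside 35.6% of all genes tested.

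**Figure D1:**
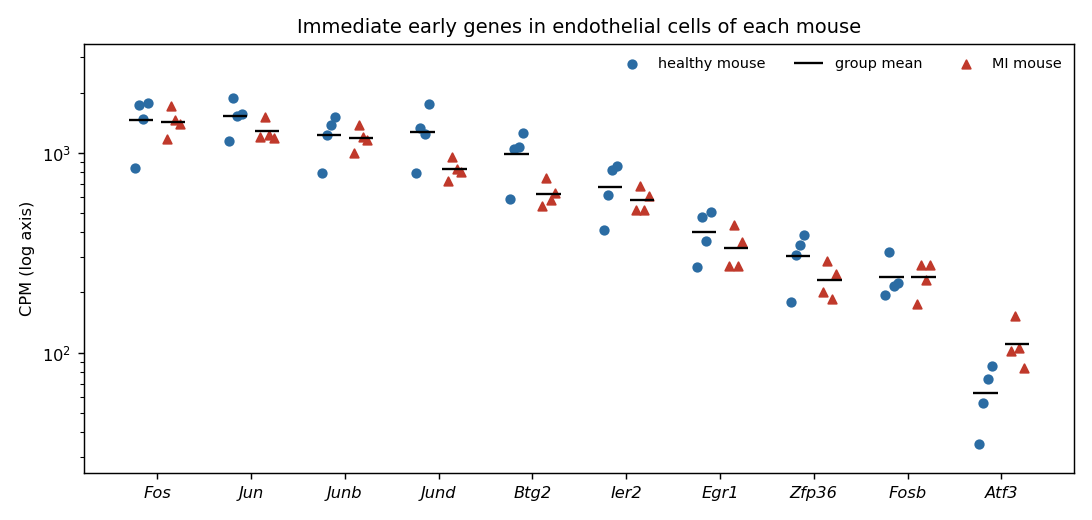
Level of each member in the endothelial cells of each mouse, in CPM on a log axis, with circles for 4 healthy mice, triangles for 4 MI mice and a line at each group mean. Healthy 227 is the lowest healthy point for all 10 members, and Atf3 has a higher mean in MI (111) than in healthy mice (62.6).

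The other genes of the pathway are read against the 18.7% higher and 18.9% lower of all genes. Of 13 other AP-1 and ATF genes tested, 3 were higher and 2 lower in MI by edgeR at an adjusted p of 0.05. Fosl2, a Fos-family subunit, rose from 25.8 ± 6.26 to 49.4 ± 5.87 CPM (SD, n = 4 mice each, log2 fold change 0.84) and Atf5 from 20.7 ± 1.36 to 38.0 ± 5.90 CPM (0.79), with no overlap between the groups. Mafg (-0.34) and Creb1 (-0.26) fell. Of 7 EGR and NR4A genes tested 1 was higher and 1 lower, both under a mean of 20 CPM. Among 35 other early response genes 8 were higher and 9 lower, with a median log2 fold change of 0.02. The feedback inhibitor of cytokine signalling Socs3 rose (119 ± 17.2 to 220 ± 46.6 CPM, 0.79), as did Csrnp1 (0.89), while Id1, an inhibitor of basic helix-loop-helix factors, fell from 1275 ± 268 to 569 ± 79.2 CPM (-1.25) and the kinase gene Sgk1 fell from 658 ± 124 to 359 ± 91.8 CPM (-0.96).

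Upstream and feedback genes are read against the same shares of all genes. Of 22 genes of serum response factor, its partners and the MAP kinase cascade 2 were higher (Map2k3, 0.42, and Map2k2, 0.32) and 2 lower (Braf, -0.51, and Hras, -0.47). Of 12 MAP kinase phosphatase and feedback genes 2 were higher and 2 lower, among them Dusp2, which rose from 9.22 ± 3.10 to 32.1 ± 6.78 CPM (1.71), and Spred2, an inhibitor of MAP kinase signalling, which fell from 56.3 ± 4.70 to 34.4 ± 7.14 CPM (-0.80).

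Of 14 heat shock genes known to be induced by tissue digestion, 6 were lower in MI and the other 8 did not pass (edgeR, adjusted p of 0.05), beside 18.9% lower of all genes, and their summed level was 8141 to 9662 CPM in healthy and 5825 to 7085 CPM in MI mice. Hspb1, a small heat shock protein gene, fell from 1516 ± 254 to 612 ± 165 CPM (log2 fold change -1.39). Hspa1b, an inducible Hsp70 gene, fell by 1.45 on the log2 scale and stood at 442 CPM in Healthy 228, 98.3 to 189 CPM in the other healthy mice and 42.7 to 131 CPM in the MI mice. It has the near-identical copy Hspa1a, and reads of the pair could be split by the counting. Healthy 227, lowest for the members, was lowest for this list too among healthy mice, but its Hspb1 level (1861 CPM) was the highest of the 8 mice. The part of digestion in the levels of the members was not tested.

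Because cells of MI mice held more UMIs, each cell was also thinned to 1000 UMIs, which left out 157, 57, 243 and 125 cells of Healthy 227, 228, 239 and 240 and 0 cells of MI mice. Unthinned, a UMI of Fos was found in 48.7% of healthy and 77.3% of MI cells (means of 4 mice each). At equal depth it was found in 28.8, 46.6, 38.2 and 39.9% of cells in the healthy mice and in 44.8, 56.5, 55.2 and 50.2% in the MI mice. The groups overlapped by Healthy 228 and MI 244, and the difference of 13.3 percentage points did not pass a two-sided exact permutation test over 70 splits (p = 0.057, adjusted over the 10 members 0.29). The share leaned the other way from the CPM, and no order is read from it. At 1000 UMIs, a cell with any Fos held on average 2.72, 3.82, 3.94 and 4.55 Fos UMIs in the healthy mice and 2.93 to 3.26 in the MI mice, which overlapped (exact permutation p = 0.14).

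Atf3 had a UMI in 2.08, 4.43, 4.77 and 5.53% of healthy and 8.48, 11.02, 8.36 and 6.29% of MI cells at equal depth. No healthy mouse reached the lowest MI mouse, which was also so for 17.6% of all genes tested. The exact permutation p was 0.0286, the smallest that 4 against 4 mice can give, and 0.29 adjusted over the 10 members. Its unthinned shares were 8.46% and 23.8%. For the other 8 members the groups overlapped, with differences from -6.03 percentage points (Jund) to 8.52 (Junb) and adjusted exact permutation p from 0.29 to 0.97. UMIs of 3 or more members were found in 42.7, 59.4, 58.7 and 58.7% of healthy and 54.7, 66.8, 62.2 and 61.3% of MI cells, a difference of 6.37 percentage points (exact permutation p = 0.29). No cell type in these data is known to lack the members, so that the share given by free RNA was not measured.

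Within cells the members went together. For each of 8 mice, Pearson's r of log(1 + UMIs) was computed over cells at 1000 UMIs for the 45 pairs of members. All 45 pairs were positive in all 8 mice. The median pair had an r of 0.23, 0.33, 0.36 and 0.41 in Healthy 227, 228, 239 and 240 and of 0.29, 0.31, 0.26 and 0.27 in MI 244, 250, 255 and 256. Pairs of a member with one of 5 reference genes (Actb, Eef1a1, Tmsb4x, Pecam1 and Cdh5) had a median between -0.03 and 0.00. Summed, these reference genes had an r with the summed members of -0.20 to -0.11 over mice, with Tmsb4x the lowest of all genes ranked (-0.17), so that their sum is no neutral baseline. These correlations share library, depth and cell state, and cells are not replicates, so that they stand as a description.

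Fos and Junb had the highest mean r of the 45 pairs, at 0.59 (0.51 to 0.72 over mice), followed by Fos with Jun (0.54) and Jun with Junb (0.51). Btg2, which is no transcription factor, had an r of 0.47 with Fos and 0.45 with Junb, Fosb one of 0.43 with Fos, and Egr1 one of 0.41 with Fos. Jund with Atf3 had the lowest (0.15, from 0.04 to 0.20). Fewer UMIs of a gene lower r, which bears most on Atf3 and also on Fosb and Egr1, so that r does not order genes of unlike level. By detection, Fosb and Atf3 were found in the same cell 2.43 times as often as their separate shares predict (1.89 to 3.10 over mice) and Fos with Junb 1.52 times. This ratio cannot exceed the inverse of the larger share, so that pairs are not ranked by it.

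**Figure D2:**
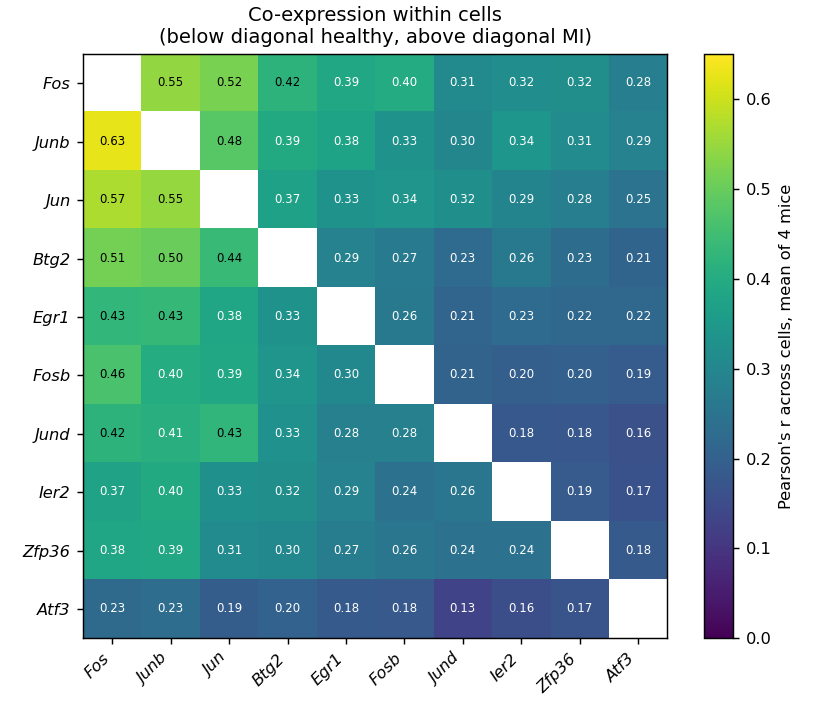
Pearson's r of log(1 + UMIs) between members across cells at 1000 UMIs, as the mean of 4 healthy mice (below the diagonal) or 4 MI mice (above it). All 45 pairs are positive, and the highest r are those among Fos, Junb and Jun. Few UMIs lower r, most of all for Atf3, so that members of unlike level are not ordered by it.

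The number of members found in a cell was spread more widely than their separate shares predict. In Healthy 240, 12.3% of cells held UMIs of 8 or more members, where independence of the members would give 0.40%. In MI 250 this was 10.8% against 0.87%. The lowest value was 2.98% against 0.02% in Healthy 227, and the other 5 mice held 6.20 to 9.19%. At the other end 39.0% of the cells of Healthy 227 and 17.5 to 26.7% of those of the other mice held at most 1 member, against an expected 20.7% and 3.39 to 9.56%. The tenth of cells with most UMIs of the other 9 members held 32.0 to 44.0% of the Fos UMIs of a mouse, 46.2 to 62.1% of the Atf3 UMIs and 20.3 to 23.8% of the Jund UMIs. Jund thus had the lowest and Atf3 the highest share of all members. Cells were ranked anew for each member by the other 9, so that this share does not measure how evenly a member is spread.

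**Figure D3:**
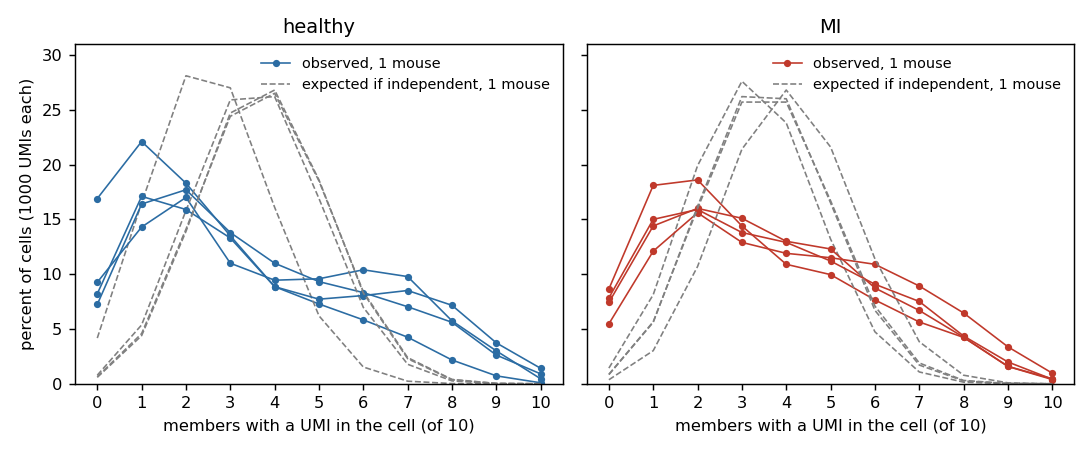
Percent of cells at 1000 UMIs (y axis) by number of members with a UMI (x axis), observed in each mouse (solid lines with points) and expected from the separate shares of the members (dashed). Observed lines exceed the expected ones at 0 and at 8 to 10 members in every mouse, for example 12.3% against 0.40% at 8 or more members in Healthy 240.

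Among the genes most like the summed members, by mean r over 8 mice among 6201 genes of at least 20 CPM, were Hspa1a (0.55), Klf4 (0.43), Klf2 (0.42), Dusp1 (0.42), Adamts1 (0.34), Socs3 (0.33), Ppp1r15a (0.31), Hsp90aa1 (0.30) and Cyr61 (0.30). Hspa1a is an inducible Hsp70 gene, Klf2 and Klf4 are factors of the endothelial response to flow, and Dusp1 is a MAP kinase phosphatase. The summed heat shock list had an r with the summed members of 0.50, 0.67, 0.50 and 0.51 in the healthy mice and 0.49, 0.53, 0.37 and 0.50 in the MI mice. The other early response genes had a mean r of 0.60, the MAP kinase phosphatases and feedback genes 0.39, the other EGR and NR4A genes 0.15, the other AP-1 and ATF genes 0.08, and the serum response factor and MAP kinase genes 0.03. Few UMIs lower r here too, so that lists of unlike level are not ordered by it. Over mice, the other early response genes summed to 7531 to 11810 CPM. The other EGR and NR4A genes summed to 99.2 to 161 CPM and the other AP-1 and ATF genes to 487 to 613 CPM. The UMIs of a cell before thinning had an r with the summed members of 0.06 to 0.18 in the healthy mice and -0.15 to -0.05 in the MI mice, so that the sign differed between the groups. The mitochondrial share had an r of -0.13 to -0.01 and cardiomyocyte markers one of -0.03 to 0.10.

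Classes of endothelial cells were set by at least 3 marker UMIs from at least 2 genes of a list among 1000 UMIs, and compared with capillary-like cells (markers such as Car4, Rgcc and Gpihbp1) of the same mouse. Of the arterial-like cells (Gja4, Gja5, Hey1 and others) 28.3% in healthy and 21.1% in MI mice sat exactly at the threshold. The median arterial-like cell held 5 arterial and 2 capillary marker UMIs in both groups. Of the Apln-type cells 53.8% in healthy and 48.0% in MI mice sat at the threshold, and the median healthy cell of this class held 3 Apln-type and 4 capillary marker UMIs. Fewer cells of a state and less RNA per cell cannot be told apart in these sums. The markers of the capillary-like class were themselves called lower in MI by edgeR, 6 of 6 beside 18.9% of all genes. In all endothelial cells they summed to 4805 to 5614 CPM in healthy and 2232 to 3994 CPM in MI mice. The part of this in comparisons within or with capillary-like cells was not tested.

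The order of the summed members over classes was venous-like, arterial-like, interferon-like, capillary-like, Apln-type and cycling cells in healthy mice. In capillary-like cells they summed to 4664, 8807, 7988 and 9503 CPM in Healthy 227, 228, 239 and 240 and 6537, 8713, 7736 and 6851 CPM in MI 244, 250, 255 and 256. In arterial-like cells they summed to 7553, 11760, 11260 and 13710 CPM in the healthy mice and 7299, 9242, 7237 and 7784 CPM in the MI mice. The lowest healthy mouse lay within the MI range and the other 3 above it. The venous-like class (Nr2f2, Vcam1 and others) was not tested at the main threshold, having 13 to 25 cells in a healthy mouse. Its sums in the mice with at least 20 cells were 13400 and 16600 CPM in Healthy 227 and 239 and 8470 to 12470 CPM in the MI mice. With 2 or more marker UMIs edgeR could fit it against capillary-like cells. There 9 of 10 members lay above 0 and 9 were called, beside 1462 of 10649 genes called in either direction. With copied cells kept, all 10 lay above 0 and 8 were called, beside 1307 of 10301 genes. Plvap-type cells (Plvap, Lrg1 and others) numbered 1 to 10 in healthy and 143 to 630 in MI mice, so that they could not be compared, and held 5285 to 7043 CPM in MI. Neighbours in this order overlapped in their ranges.

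**Figure D4:**
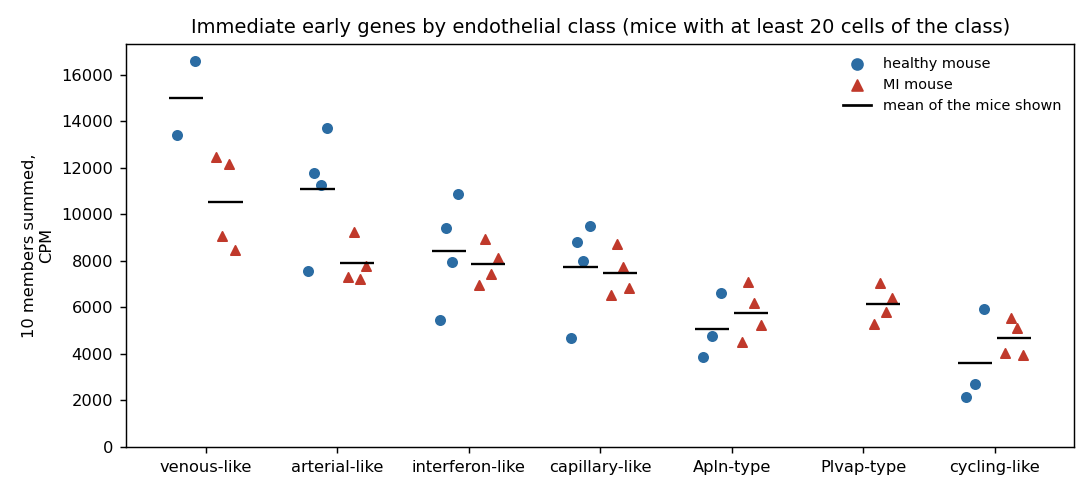
Summed level of the 10 members in CPM by endothelial class, for each mouse with at least 20 cells of the class (circles healthy, triangles MI, lines at the mean of the mice shown). Arterial-like cells of 3 healthy mice (11260 to 13710) lie above those of all MI mice (7237 to 9242), and cycling cells are lowest.

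Over both groups, arterial-like cells held more of 6 members than capillary-like cells, an excess that differed between healthy and MI mice. With both groups in 1 edgeR fit and the mouse as a block, 6 of 10 members were higher at an adjusted p of 0.05 and the other 4 did not pass, beside 14.0% higher and 14.1% lower of 10875 genes. They were Ier2 (log2 difference 0.52), Atf3 (0.41), Fos (0.40), Junb (0.34), Btg2 (0.32) and Jund (0.17). Egr1 was the 1 member below 0 (-0.16, edgeR adjusted p = 0.074), and it passed as lower without Healthy 227, 239 or 240 (0.034 to 0.035), without both Healthy 227 and Healthy 228 (0.018) and with 4 or more marker UMIs (0.040). Jun, at an edgeR adjusted p of 0.052, passed as higher without MI 244, 250 or 255 and with 2 or more or 4 or more marker UMIs (0.014 to 0.040). The calls of Jund and Atf3 were lost without Healthy 239 (adjusted p = 0.14 and 0.11 by edgeR) without Healthy 240 (0.15 and 0.057) or without both Healthy 227 and Healthy 228 (0.29 and 0.089), that of Jund also without Healthy 227 (0.15) or Healthy 228 (0.097), and that of Atf3 also with 2 or more marker UMIs (0.059).

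As a share of UMIs, cycling cells (Mki67, Top2a and others) held less. In them 9 of 10 members were lower, beside 26.2% lower and 24.3% higher of all genes. The log2 differences ran from -0.41 (Fosb) to -0.92 (Btg2, the antiproliferative member), with edgeR adjusted p of at most 0.0015. The median cycling cell held 5130 UMIs in healthy and 6950 in MI mice, the median capillary-like cell 2081 and 3517. A lower share in cells with more UMIs need not mean fewer UMIs of the members in a cell. Atf3 was at -0.04 (edgeR adjusted p = 0.85). The cycling class had 21 to 31 cells in the 3 healthy mice used, and it could not be fitted with 4 or more marker UMIs, where Healthy 227 and Healthy 228 held 19 and 13 cells. Apln-type cells (Apln, Esm1 and others, markers of angiogenic tip cells) also had 9 of 10 members lower, beside 10.2% lower and 10.2% higher of all genes, from -0.23 (Egr1) to -0.68 (Jun). Again the exception was Atf3, at 0.20 (edgeR adjusted p = 0.45). Healthy 228 held 17 Apln-type cells, under the minimum of 20, so that 3 healthy mice were used for this class. The calls of Egr1 and Ier2 in this class were each lost in 4 of 8 fits without 1 mouse and with copied cells kept (edgeR adjusted p = 0.15 and 0.12), and that of Egr1 also with 2 or more marker UMIs (0.087). With 4 or more marker UMIs the class could not be fitted, since Healthy 227 and Healthy 228 held 11 and 5 cells of it. Interferon-like cells (Ifit1, Isg15 and others) differed in Atf3 alone among the 10 members, which was 0.73 log2 units higher (edgeR adjusted p = 9.99e-06), beside 5.46% higher and 1.09% lower of all genes. With 4 or more marker UMIs Ier2 was called as well (0.16, edgeR adjusted p = 0.018). In these cells Atf3 was higher than in capillary-like cells in 8 of 8 mice.

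The arterial excess differed between the groups. In healthy mice, arterial-like cells exceeded capillary-like cells in log2 Atf3 by 1.34, 1.12, 1.28 and 0.95 in Healthy 227, 228, 239 and 240. In MI 244, 250, 255 and 256 the difference was 0.19, 0.03, -0.27 and 0.35. All healthy mice lay above all MI mice. For Fos it was 1.04, 0.38, 0.59 and 0.80 in the healthy mice and 0.34, 0.22, -0.10 and 0.13 in the MI mice, and for Jund 0.54, 0.33, 0.42 and 0.40 against 0.02, -0.04, -0.13 and 0.01. Each of the 10 members had its 4 MI mice below its 4 healthy mice, which held for 3.04% of 9843 genes measured in both classes of all mice. The members are correlated within cells, so that they do not stand as 10 separate measurements.

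A class by condition term, added to the model in a second edgeR fit, tested this difference directly. It was called for 7 of 10 members, all lower in MI, beside 0.347% lower and 0.383% higher of 11232 genes. They were Atf3 (-1.11 ± 0.19, edgeR adjusted p = 0.00022), Fos (-0.52 ± 0.12, 0.017), Fosb (-0.50 ± 0.12, 0.029), Junb (-0.46 ± 0.11, 0.023), Jun (-0.46 ± 0.11, 0.017), Jund (-0.44 ± 0.08, 0.00054) and Egr1 (-0.43 ± 0.11, 0.049). Btg2 (-0.35), Ier2 (-0.26) and Zfp36 (-0.24) had edgeR adjusted p of 0.0504, 0.33 and 0.28. The sign stayed the same for all 10 members in every fit run, and the log2 term of Fos lay between -0.61 and -0.44 without any 1 mouse. The number of members called was less steady. It was 2 with copied cells kept (Jund and Atf3), 5 with 2 or more marker UMIs, 8 with 4 or more and 2 without both Healthy 227 and Healthy 228. Without 1 mouse it was 3 (Healthy 227), 4 (Healthy 228 or Healthy 240), 1 (Healthy 239), 2 (MI 250 or MI 255) and 8 (MI 244 or MI 256). Of all genes, the term was called in either direction for 82 of 11232 in the main fit. Without Healthy 227, 228, 239 and 240 in turn it was called for 70 of 11112, 59 of 10817, 33 of 11226 and 48 of 11298. Without MI 244, 250, 255 and 256 in turn it was called for 57 of 10328, 51 of 10591, 52 of 10550 and 127 of 11193. Jund was called in each of these fits, and Atf3 in each but the one without Healthy 239 (edgeR adjusted p = 0.056). A negative term was not particular to arterial-like cells. In venous-like cells it lay below 0 for 9 of 10 members, both with 2 or more marker UMIs and with copied cells kept. It was called there for 2 and 0 of 10 members, beside 23 of 10936 and 18 of 10623 genes. Capillary-like cells are the reference for both classes.

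**Figure D5:**
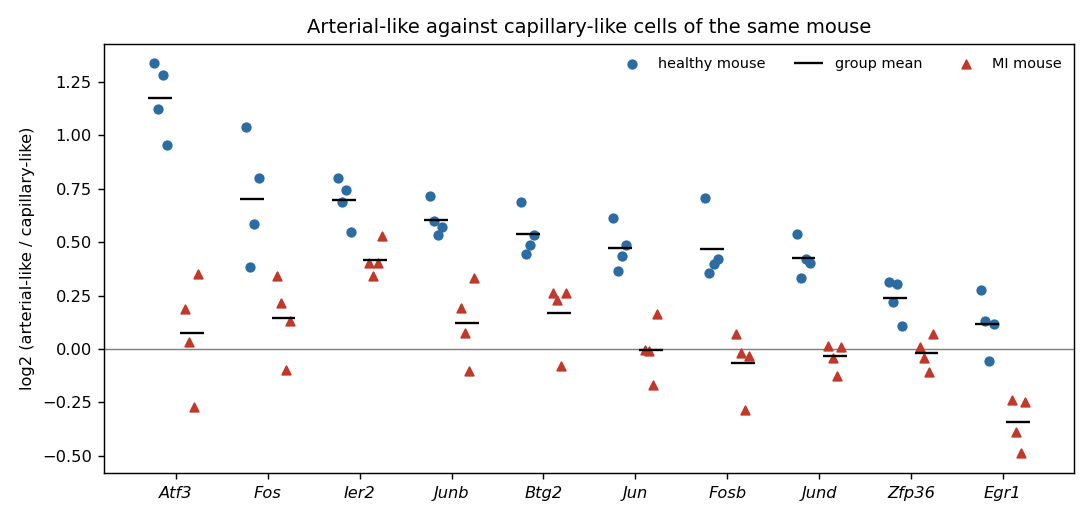
Log2 ratio of the level in arterial-like to that in capillary-like cells of the same mouse for each member, with circles for 4 healthy mice, triangles for 4 MI mice and lines at the group means. The MI points lie below the healthy points for all 10 members, and the mean of Atf3 is 1.17 in healthy and 0.08 in MI mice.

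The comparison of MI with healthy mice was also made within 1 class. Within arterial-like cells Jund (log2 fold change -0.97 ± 0.17, edgeR adjusted p = 0.0016), Btg2 (-0.83 ± 0.17, 0.0031) and Jun (-0.57 ± 0.13, 0.0082) were lower in MI, beside 7.67% lower and 6.59% higher of 8853 genes, and these 3 calls held without any 1 mouse. Without Healthy 227, Fos (-0.58), Junb (-0.58), Egr1 (-0.71), Ier2 (-0.56) and Zfp36 (-0.72) were called lower as well (edgeR adjusted p from 0.0052 to 0.018), and Egr1 also without Healthy 239 (0.045) or MI 250 (0.040). Atf3 was at -0.04 (edgeR adjusted p = 0.95). Within capillary-like cells Atf3 was the 1 member called (1.12 ± 0.33, edgeR adjusted p = 0.026), beside 13.5% higher and 13.7% lower of 10694 genes. Its capillary level was 17.4, 37.4, 52.4 and 62.8 CPM in Healthy 227, 228, 239 and 240 and 87.9, 146, 95.0 and 62.6 CPM in MI 244, 250, 255 and 256. The groups touched at Healthy 240 and MI 256. The call was lost without Healthy 228 (edgeR adjusted p = 0.061), MI 250 (0.084) or MI 255 (0.053). Without Healthy 227, Jund (-0.71), Btg2 (-0.68) and Zfp36 (-0.48) were called lower in capillary-like cells (edgeR adjusted p from 0.0029 to 0.032). Within Apln-type, cycling and interferon-like cells edgeR called 0 of 10 members in each, beside 3.21%, 0.643% and 14.8% of all genes. Atf3 had a log2 fold change of 1.86, 1.68 and 0.78 there (edgeR adjusted p = 0.0503, 0.096 and 0.066). At an unadjusted p of 0.05, 3 members were higher in Apln-type cells, 3 were higher in cycling cells, and 1 was higher and 2 lower in interferon-like cells, beside 18.3%, 13.6% and 30.8% of all genes in either direction. No other tool was run within these classes, and Apln-type and cycling cells had 3 healthy mice each.

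Cycling cells differed in the opposite direction. There the class by condition term was positive for 10 of 10 members and called for Ier2 (0.80), Fos (0.74) and Btg2 (0.62), beside 1.96% higher and 2.18% lower of all genes. Without Healthy 239 these 3 calls were lost (edgeR adjusted p from 0.061 to 0.24), that of Ier2 also without Healthy 240 (0.14) and that of Fos also with 2 or more marker UMIs (0.10) or without both Healthy 227 and Healthy 228 (0.062). Without Healthy 240, Fosb (2.19), Jun (1.03) and Zfp36 (1.04) were called higher (edgeR adjusted p from 0.00021 to 0.0499), and Jun also with copied cells kept (0.55, edgeR adjusted p = 0.039). The Fos level in cycling cells was 188, 314 and 993 CPM in Healthy 227, 239 and 240 and 691 to 1171 CPM in MI mice, so that the result rests on 3 small and unlike healthy samples. In Apln-type and in interferon-like cells the term was called by edgeR for 0 of 10 members, beside 0.383% and 0.107% of all genes. At an unadjusted p of 0.05 it passed for 5 Apln-type terms, all above 0, beside 5.67% of all genes above and 3.55% below 0, and for 2 interferon-like terms, both below 0, beside 2.78% of all genes above and 1.94% below 0. No other tool was run on it.

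The members were also measured in the cells left out as not endothelial. Mural-marked cells summed to 9377 to 18250 CPM in healthy and 8831 to 10890 CPM in MI mice, and haematopoietic-marked cells to 6358 to 12160 CPM in 3 healthy and 8510 to 10160 CPM in 4 MI mice. These rest on 18 to 468 cells in a mouse and were not tested.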

How the data were processed

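Per the labels and the methods, the authors aligned and counted reads with Cell Ranger on mm10 and processed them with R 3.5.2 and Seurat 2.3. They deposited 1 table of raw UMI counts (16791 genes, 31028 cells), already filtered: the fewest genes in a cell were 403 and the highest mitochondrial share was 19.96%. Groups came from the labels. Members and gene lists were chosen with earlier results of these data known.

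Copies of a cell in a second library (same barcode, at least 90% of UMIs matched) and cells with 5 or more UMIs of other cell types' markers were left out. UMIs were summed per mouse, or per mouse and class (at least 20 cells), and tested with edgeR 4.0.16 (TMM, filterByExpr, quasi-likelihood, Benjamini-Hochberg adjustment over all genes at 0.05) in R 4.3.3. Shares at 1000 UMIs, thinned without replacement, were tested by exact permutation. Python 3.11.15, numpy 2.4.6, scipy 1.17.1 and pandas 2.3.3 were used. The fits were tested on simulated data. Alternatives were DESeq2 1.42.0, limma-voom (limma 3.58.1), library size only, no filter, thinned cells, other cell sets and thresholds, and each mouse left out. Named genes were all members, of each list the 2 highest and 2 lowest called at 20 CPM or more, and the 10 genes most alike, of which 1 is not reported here. Promoters were RefSeq's. Doublets were not called. Each mouse is 1 library, and no undigested control was analysed here.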

Additional observations from a re-analysis of the deposited data

Results flagged for a closer look

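Some values stood far from the other mice of their group, by the gap to the nearest mouse over the range of the group. This was so in 4 of 42 groups checked, and chance alone flags about 1 in 20. Jun in MI 250 was at 1511 CPM, against 1190 to 1229 CPM in the other MI mice. Healthy 227 lay below the other healthy mice in its share of cells at 1000 UMIs with a UMI of Junb (33.7%) and of Btg2 (34.7%), and of 3 or more members (42.7%). Copied cells left out numbered 301 in Healthy 227 and 2030 in Healthy 228, which did not stand apart in these values.

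The difference between MI and healthy mice was itself different in arterial-like and in capillary-like cells for 7 members by edgeR's class by condition term. The log2 terms were -0.52 for Fos, -0.50 for Fosb, -0.46 for Jun, -0.46 for Junb, -0.44 for Jund, -0.43 for Egr1 and -1.11 for Atf3. In cycling cells the terms were 0.74 for Fos, 0.80 for Ier2 and 0.62 for Btg2.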

How the results depend on the processing

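No paired analysis was possible because healthy and MI mice share no replicate numbers. The 2301 genes called higher and 2317 called lower in MI by edgeR became 1439 and 1462 in capillary-like cells and 1315 and 1319 in cells thinned to 1000 UMIs, and ranged from 1701 to 2474 and from 1579 to 2453 without 1 mouse. The mean over mice of the median correlation of member pairs was 0.31 at 1000 and 0.39 at 2000 UMIs. At 2000, more UMIs enter each cell and cells with fewer UMIs than that drop out, and the part of either was not tested.

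Values near 0 changed sign, none of them called. In capillary-like cells the log2 fold changes of Fos, Fosb and Junb were 0.10, 0.21 and 0.049, and in thinned cells those of Fos and Fosb were 0.005 and 0.12. Fosb was also at 0.032 with copied cells kept, 0.004 with library size only and 0.045 without Healthy 227 and 228. The share of cells with Egr1 differed by -0.86 points at 500 UMIs, -1.58 at 2000 and -0.31 without Healthy 227 and 228, that with Ier2 by -0.41, -0.012 and -4.76, and by -0.48 with copied cells kept, and that with Zfp36 by 0.82 in capillary-like cells. Atf3 in cycling cells was at 0.005 with copied cells kept. The cause of these changes was not tested.

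Without 1 mouse, the log2 fold change of Fosb ranged from -0.18 to 0.10, the share of Egr1 from -2.26 to 2.44 points and that of Ier2 from -2.90 to 2.17. Atf3 in cycling cells ranged from -0.10 to 0.043, and the cycling class by condition term of Fosb from -0.11 to 2.19 and of Egr1 from -0.062 to 0.87. Atf3 within arterial-like cells ranged from -0.27 to 0.16. Within capillary-like cells Fos ranged from -0.12 to 0.25, Jun from -0.25 to 0.032, Junb from -0.13 to 0.18, Egr1 from -0.30 to 0.031 and Ier2 from -0.31 to 0.037.

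The alternatives without Healthy 227 and 228, those of the class by condition term, and the fits without 1 mouse within a class or between classes were chosen after seeing the data. DESeq2, limma-voom and no filter on low counts were run on the levels per mouse only, where they left every member on its side of the threshold. Permutation over 8 mice cannot go below 0.0286. Levels of Atf3 in small classes rest on few UMIs.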

Other observations

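Of the genes most alike the members within cells, the first, Hspa1a, had a log2 fold change of -0.71 in MI that did not pass (edgeR adjusted p = 0.073). Klf2 and Klf4, which serve the endothelial response to flow, were lower in MI by edgeR (log2 fold change -0.58, adjusted p = 0.035, and -0.78, adjusted p = 0.029), and Hsp90aa1 was lower by -0.67 (adjusted p = 0.0047). Socs3, given above, was higher (0.79, edgeR adjusted p = 0.0038), and Cyr61 lower (-0.33, edgeR adjusted p = 0.046). Dusp1, Adamts1 and Ppp1r15a had edgeR adjusted p from 0.25 to 0.89. At the other end of the 6201 genes ranked, Tmsb4x had a mean r of -0.17 with the summed members and Tmsb10 the same value.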
